A study of Mus musculus with 2 samples.

Results

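The cluster from miR-532 to miR-500 is a group of miRNA hairpins inside the X-linked mouse gene Clcn5, which encodes the endosomal chloride/proton exchanger ClC-5, known from the kidney. Its 8 members were chosen by name, and all 8 had an entry among the 1214 miRNA entries measured: mmu-miR-532-5p, mmu-miR-532-3p, mmu-miR-188-5p, mmu-miR-362-5p, mmu-miR-362-3p, mmu-miR-501-3p, mmu-miR-500-5p and mmu-miR-500-3p, written below without the species prefix. The levels of miR-500-5p and miR-500-3p in these libraries were known when the cluster was picked, so the values below are descriptions. The small RNA came from exosomes, vesicles released into culture medium. 1 library came from C57BL/6 mesenchymal stem cells (MSCs), which are stromal cells able to differentiate into bone, cartilage or fat. The other, the control, came from NIH3T3 cells, an immortalised line of fibroblasts from the NIH Swiss strain. Both cell types had been kept for 72 hours in αMEM with 5% FBS, on uncoated plastic. Each group held 1 library, so no test was made, and no difference below has a replicate check. The stated question was which miRNAs MSC exosomes carried in excess.

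The MSC library held 1028186 miRNA counts and the NIH3T3 library 431007. Levels are CPM, scaled to each library's miRNA total, and a count of 0 allowed up to 6.96 CPM in the NIH3T3 library, which is 3 counts. Brackets hold 95% intervals for counting error alone, which PCR copies would make too narrow if reads and not molecules were counted. Checked against their labels, both libraries carried all 7 mesenchymal miRNAs looked for. The sources are stromal cells and fibroblasts, so these miRNAs do not tell the 2 labels apart. They summed to 249358 CPM in MSC and 186243 CPM in NIH3T3 exosomes. Most of that was the shared entry of miR-199a-3p and miR-199b-3p, with 167562 CPM in MSC and 154264 CPM in NIH3T3 exosomes. The 4 blood cell miRNAs summed to 255 CPM in MSC and 443 CPM in NIH3T3 exosomes, but did not all go the same way. With MSC first, miR-142a-3p (118 and 329 CPM) and miR-451a (26.3 and 60.3 CPM) were higher in NIH3T3 exosomes. miR-223-3p (81.7 and 39.4 CPM) and miR-150-5p (29.2 and 13.9 CPM) were higher in MSC exosomes. The only one of 3 epithelial miRNAs with an entry, miR-205-5p, had 27.2 CPM in MSC and 30.2 CPM in NIH3T3 exosomes. Of 3 skeletal muscle miRNAs 2 had an entry, with a sum of 7251 CPM in MSC and 501 CPM in NIH3T3 exosomes, nearly all of it miR-206-3p. The liver miRNA miR-122-5p stood at 9491 CPM in MSC and 8088 CPM in NIH3T3 exosomes, and the endothelial miR-126a-3p at 328 and 717 CPM in the same order. Whether such miRNAs came from the named cells, from other cells or from the 5% FBS of the medium was not tested. Any part of these sources in the cluster values was not tested either.

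A miRNA hairpin is cut out of a longer transcript by Drosha and then cut by Dicer, which leaves a duplex of a 5p and a 3p strand. Usually 1 strand is kept by an Argonaute protein and the other is degraded, so the balance of the arms is a feature of a hairpin separate from how strongly its gene is transcribed. The kept strand finds its mRNA targets mainly through its seed, bases 2 to 8. Hairpins of a cluster can be made from the same transcript, and the cluster in Clcn5 is shared by many mammals.

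In mm10 the 5 hairpins lay on the minus strand, within 10815 bases of chromosome X from 7237683 to 7248497, and Clcn5 ran on the same strand from 7153810 to 7319358. In the order of transcription they were miR-532, miR-188, miR-362, miR-501 and miR-500. miR-532 and miR-188 were 345 bases apart, miR-188 and miR-362 were 5942, miR-362 and miR-501 were 630, and miR-501 and miR-500 were 3468. Of 5 annotated Clcn5 transcripts 3 spanned all the hairpins, each within a single intron, and none had an exon there. The distance from the most upstream Clcn5 start was 70.9 kb for miR-532 and 81.6 kb for miR-500. The arms of these hairpins gave 10 entries, the 8 members with miR-501-5p and miR-188-3p as neighbours. The miR-660 arms had no entry among those used here and were not analysed.

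The mature sequences show which members could act through the same seed and which are similar enough to exchange reads. RefSeq (GRCm38.p6) gave 7 of the 8 members and both neighbours, and its positions equalled those of the deposited table. They are printed 5′ to 3′ with the seed in capitals, grouped by likeness.
miR-500-5p: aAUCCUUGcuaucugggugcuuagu
miR-362-5p: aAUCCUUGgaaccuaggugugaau
miR-501-5p: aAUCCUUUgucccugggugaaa
miR-188-5p: cAUCCCUUgcaugguggaggg
miR-500-3p: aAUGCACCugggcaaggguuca
miR-501-3p: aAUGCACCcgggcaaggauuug
miR-362-3p: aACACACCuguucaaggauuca
miR-532-3p: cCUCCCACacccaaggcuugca
miR-188-3p: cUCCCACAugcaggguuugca

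A pair of seeds was shared inside the cluster. miR-500-5p and miR-362-5p carried AUCCUUG, while miR-500-3p and miR-501-3p carried AUGCACC. No other miRNA entry with a RefSeq sequence, of 1052 matched entries, had either seed. The closest pair was miR-500-3p and miR-501-3p, which matched at 18 of 22 bases, with the differences U9C, G18A, C21U and A22G (miR-500-3p first, counted from its 5′ end). miR-500-3p and miR-362-3p differed at 5 of 22 bases. miR-500-5p differed from miR-501-5p at 7 of 22 bases and from miR-362-5p at 8 of 24. The sources used here do not say how reads that fit such neighbours were counted, so the split between miR-500-3p and miR-501-3p is uncertain. No stretch of 18 bases in any of the 9 sequences occurred in an annotated transcript of another gene with introns left out (GENCODE M21).

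The miR-500 hairpin is shown whole, with its arms in capitals, because its arms went opposite ways. It lies at chrX:7237683-7237774 on the minus strand of GRCm38.p6, and its first capital run is miR-500-5p, its second miR-500-3p.
Mir500: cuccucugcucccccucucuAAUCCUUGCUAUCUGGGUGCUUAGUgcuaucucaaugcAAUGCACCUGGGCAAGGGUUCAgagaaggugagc

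MSC exosomes carried more miR-532-5p and miR-500-5p and less miR-500-3p than NIH3T3 exosomes, while most other members differed by less than 2-fold. The ratio has MSC exosomes over NIH3T3 exosomes, on the authors' normalized scale. Log2 ratios on that scale lie about 0.24 below those of the CPM values, so the folds given differ from those of the CPM pairs. A miRNA is called higher or lower at 2-fold or more if it reached 100 CPM in at least 1 library. Of the 8 members, 5 passed that level, of which 2 were higher, 1 was lower and 2 were within 2-fold. Over all 318 miRNAs past the level 34.0% were higher and 26.1% lower, or 60.1% in either direction, so the counts of members are near this background. The median log2 ratio was 0.47 for the 5 members and 0.28 for the 318 miRNAs.

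miR-532-5p, for which RUNX3 is a reported target in human cells, was the most abundant member in MSC exosomes. It had 1447 counts or 1407 CPM in MSC exosomes, against 183 counts or 425 CPM in NIH3T3 exosomes. The log2 ratio was 1.49 (1.27 to 1.72), a 2.81-fold difference. By abundance it ranked 69th of the miRNA entries in MSC exosomes and 117th in NIH3T3 exosomes. Its partner miR-532-3p had 97 counts in MSC and 25 counts in NIH3T3 exosomes (94.3 and 58.0 CPM), and so stayed below 100 CPM in both. Its log2 ratio was 0.46 (-0.18 to 1.16), and that interval includes no difference.

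miR-188-5p, which in mouse bone marrow stromal cells is known to influence the choice between bone and fat, was under 100 CPM in both libraries. It had 71 counts or 69.1 CPM in MSC exosomes, against 8 counts or 18.6 CPM in NIH3T3 exosomes. The log2 ratio of 1.61 (0.60 to 2.93) was past 2-fold, but its interval reached below 2-fold. The neighbour miR-188-3p had 14 counts in MSC and 3 counts in NIH3T3 exosomes, too few to place its ratio (0.66, -1.11 to 3.17).

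Both arms of miR-362 stood at similar levels in the 2 libraries. miR-362-5p, reported to repress the deubiquitinase CYLD in human cells, had 144 counts or 140 CPM in MSC exosomes, against 37 counts or 85.8 CPM in NIH3T3 exosomes. Its log2 ratio was 0.47 (-0.06 to 1.03). miR-362-3p had 81 counts in MSC and 27 counts in NIH3T3 exosomes (78.8 and 62.6 CPM), with a log2 ratio of 0.09 (-0.55 to 0.78). The sign of that last ratio depended on the scaling, since it was -0.18 when all ratios were centred on their median.

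miR-501-3p, which has been studied in mouse muscle progenitors, was about equally abundant in both libraries. It had 261 counts or 254 CPM in MSC exosomes, against 117 counts or 271 CPM in NIH3T3 exosomes. The log2 ratio was -0.33 (-0.65 to -0.00). Its opposite arm, the neighbour miR-501-5p, had 56 counts in MSC and 9 counts in NIH3T3 exosomes (54.5 and 20.9 CPM), with a log2 ratio of 1.11 (0.12 to 2.35). It was under 100 CPM in both libraries, and its interval included ratios well under 2-fold.

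The arms of miR-500 moved in opposite directions. miR-500-5p had 168 counts or 163 CPM in MSC exosomes, against 0 counts in NIH3T3 exosomes, so that it was at least 19.9-fold higher in MSC exosomes when 3 counts are allowed for the 0. miR-500-3p had 247 counts or 240 CPM in MSC exosomes, against 307 counts or 712 CPM in NIH3T3 exosomes. It was 3.48-fold lower in MSC exosomes, with a log2 ratio of -1.80 (-2.05 to -1.56). In NIH3T3 exosomes miR-500-3p was the most abundant member and ranked 92nd of the miRNA entries, while in MSC exosomes it ranked 159th.

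**Figure D1:**
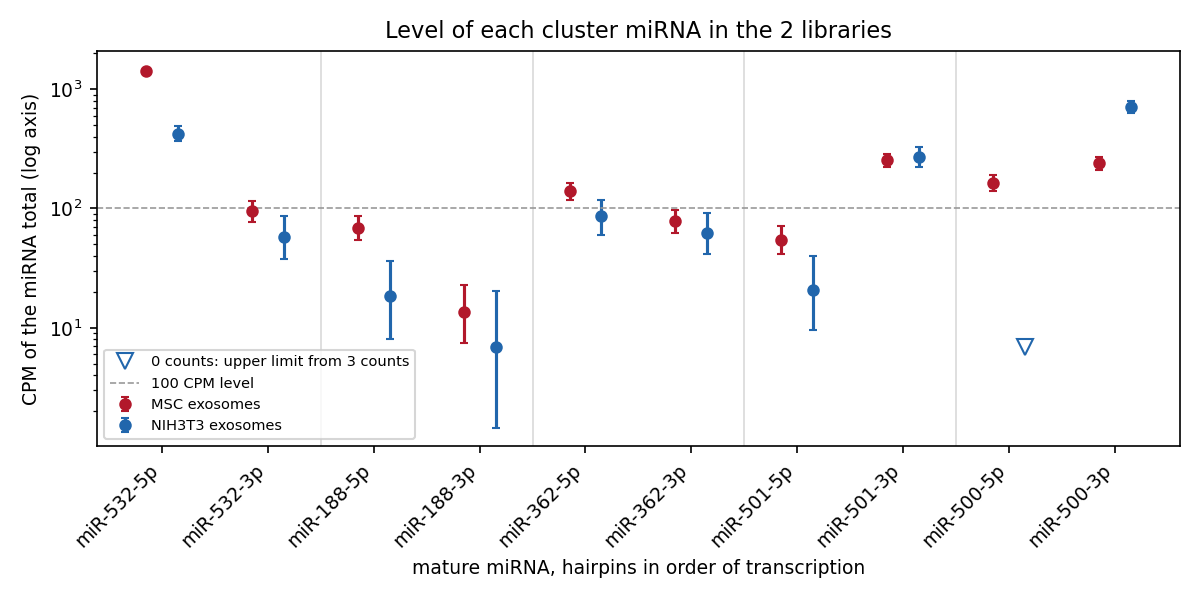
Level of the 10 cluster miRNAs in CPM of the miRNA total (log axis), in MSC exosomes (red, left of each pair) and NIH3T3 exosomes (blue, right), with 95% exact counting intervals and 1 library each; the dashed line is the 100 CPM level and the open triangle is the 6.96 CPM that 0 counts allow. miR-532-5p is highest in MSC exosomes, miR-500-3p is highest in NIH3T3 exosomes, and miR-500-5p was counted in MSC exosomes but not in NIH3T3 exosomes.

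Summed over its 8 members, the cluster differed by less than 2-fold between the libraries. The sum was 2516 counts in MSC and 704 counts in NIH3T3 exosomes, or a share of all miRNA counts of 0.245% in MSC exosomes (0.235 to 0.254), against 0.163% in NIH3T3 exosomes (0.152 to 0.176). The log2 ratio was 0.35 (0.23 to 0.47), a 1.27-fold difference. Other scalings gave log2 ratios from 0.072 to 0.58, so the choice of scaling moved it by more than the counting error. Single members weighed heavily in that sum. Without miR-532-5p the ratio was -0.45 (-0.61 to -0.30), and without miR-500-3p it was 1.02 (0.87 to 1.18).

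The make-up of the cluster differed more than its total. Of all counts on the 10 entries, miR-532-5p took 56.0% in MSC exosomes (54.0 to 57.9), against 25.6% in NIH3T3 exosomes (22.4 to 28.9). miR-500-3p took 9.55% in MSC exosomes (8.45 to 10.7), against 42.9% in NIH3T3 exosomes (39.2 to 46.6). miR-501-3p took 10.1% in MSC exosomes (8.96 to 11.3), against 16.3% in NIH3T3 exosomes (13.7 to 19.3). The leading miRNA of the cluster was thus a 5p arm from its upstream end in MSC exosomes and a 3p arm from its downstream end in NIH3T3 exosomes.

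Along the transcript the ratio fell from the upstream pair of hairpins towards the downstream end, an order that was noticed after the values were seen. With both arms summed, miR-532 had 1544 counts in MSC and 208 counts in NIH3T3 exosomes and a log2 ratio of 1.40 (1.19 to 1.62). miR-188 had 85 counts in MSC and 11 counts in NIH3T3 exosomes and a ratio of 1.43 (0.55 to 2.52), which cannot be separated from that of miR-532. miR-362 followed at 0.32 (-0.08 to 0.75) and miR-501 at -0.16 (-0.46 to 0.15), and the intervals of these neighbours overlap. miR-500, with 415 counts in MSC and 307 counts in NIH3T3 exosomes, was lowest at -1.05 (-1.27 to -0.84), below miR-501 by more than the counting error. Most counts of miR-501 and miR-500 were on their 3p arms, whose split of reads is uncertain, so the gap between these 2 hairpins is uncertain too. Any scaling moves all 5 ratios by the same amount and leaves the order of the hairpins as it is.

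The 3p arms had the same order, at 0.46 for miR-532-3p, 0.66 for miR-188-3p, 0.09 for miR-362-3p, -0.33 for miR-501-3p and -1.80 for miR-500-3p. This likeness is partly built in, because 3p arms hold most of the summed counts of miR-501 and miR-500. The 5p arms did not have that order: miR-501-5p (1.11) was above miR-362-5p (0.47), and miR-500-5p, at the downstream end, had the largest ratio of the cluster. Summed, the 5 entries of 5p arms had 1886 counts in MSC and 237 counts in NIH3T3 exosomes (2.83-fold higher, 2.47 to 3.26), and the 5 entries of 3p arms had 700 and 479 counts in the same order (1.92-fold lower, log2 ratio -0.94, -1.11 to -0.77). Without the miR-500 hairpin the ratios were 1.37 (1.17 to 1.57) for the 5p arms and -0.09 (-0.35 to 0.17) for the 3p arms. That 5p ratio is mainly the one of miR-532-5p. It held 1447 of the 1718 counts in MSC and 183 of the 237 counts in NIH3T3 exosomes.

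**Figure D2:**
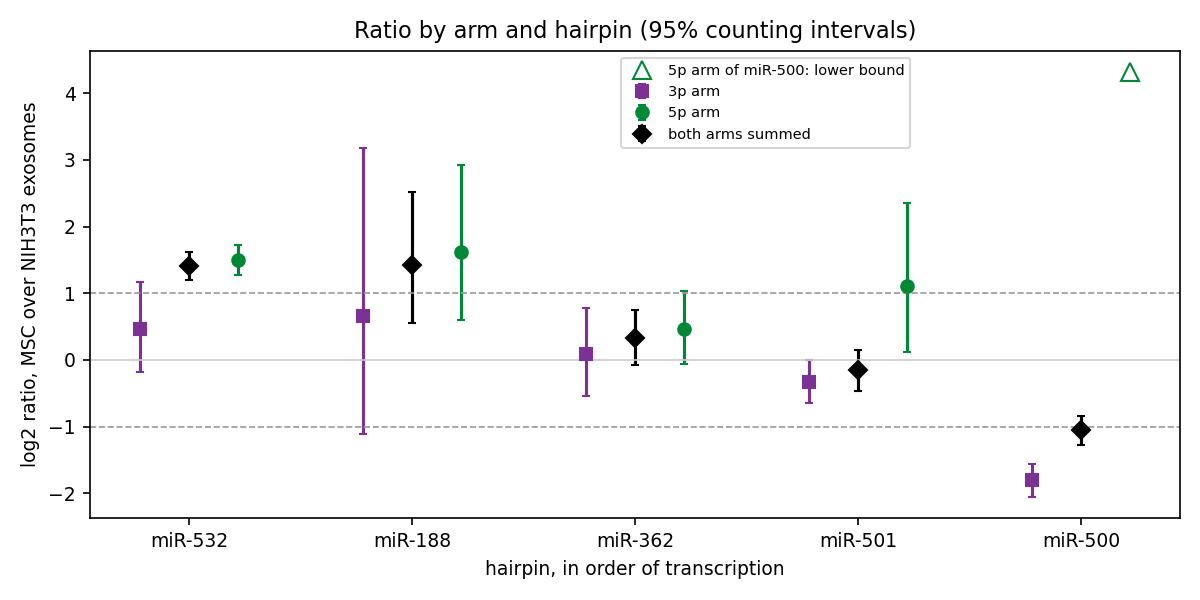
Log2 ratio, with MSC exosomes over NIH3T3 exosomes on the deposited scale, for the 5p arm (circles), the 3p arm (squares) and both arms summed (diamonds) of each hairpin, from upstream to downstream, with 95% counting intervals; dashed lines mark 2-fold, and the open triangle is the lower bound for miR-500-5p. The summed ratio is 1.40 for miR-532 at the upstream end and -1.05 for miR-500 at the downstream end.

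An unequal ratio among clustered hairpins was not particular to Clcn5. The table held 6 clusters with at least 4 hairpins that had 10 or more counts in both libraries, each hairpin within 10 kb of the next on the same strand. From its lowest to its highest hairpin, the Clcn5 cluster spanned 2.52 on the log2 scale, here without the added constant, the fourth widest of the 6. The span was 3.09 for the miR-17-92 cluster on chromosome 14 and 1.90 for the other X-linked one, the cluster from miR-322 to miR-450b. The widest, on chromosome 12, spanned 8.28 over 21 hairpins. A strictly falling or rising order along the transcript was seen in none of the 6. Clcn5 missed it because miR-188 lay slightly above miR-532. The 6 clusters held from 4 to 21 hairpins, and with more hairpins a strict order is harder to meet and a span tends to be wider. Neither comparison therefore shows how unusual the Clcn5 cluster is.

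The balance between arms was compared within each library, which makes it independent of the scaling between them. The 5p arm held a larger share in MSC exosomes at all 5 hairpins, but only for miR-532, miR-501 and miR-500 did the interval of the difference leave out 0. For miR-532 the 5p share was 93.7% in MSC exosomes (92.4 to 94.9), against 88.0% in NIH3T3 exosomes (82.8 to 92.1), a difference of 1.03 in log2 of 5p over 3p (0.29 to 1.72). For miR-501 it was 17.7% in MSC exosomes (13.6 to 22.3), against 7.14% in NIH3T3 exosomes (3.32 to 13.1), a difference of 1.48 (0.39 to 2.73). In both hairpins the leading arm was the same in the 2 libraries. Differences of this size were common: over the 88 hairpins compared below, the median size was 0.90 on the log2 scale. At 41 of these 88 the difference was 2-fold or more.

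The 5p share of miR-362 was 64.0% in MSC exosomes (57.4 to 70.3), against 57.8% in NIH3T3 exosomes (44.8 to 70.1), and the log2 difference of 0.38 (-0.51 to 1.24) was within counting error. miR-188 gave 83.5% in MSC exosomes (73.9 to 90.7) against 72.7% in NIH3T3 exosomes (39.0 to 94.0), the second from 11 counts. At miR-500 the 5p arm made up 40.5% of the counts in MSC exosomes (35.7 to 45.4), against 0 of 307 counts in NIH3T3 exosomes, which allows a share of up to 0.977%. With 3 counts put in place of the 0, the ratio of 5p to 3p was 69.6-fold higher in MSC exosomes, a log2 difference of 6.12. The interval of the difference, as given for the other hairpins, began at 5.78 and had no upper end. The 3p arm led in both libraries.

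**Figure D3:**
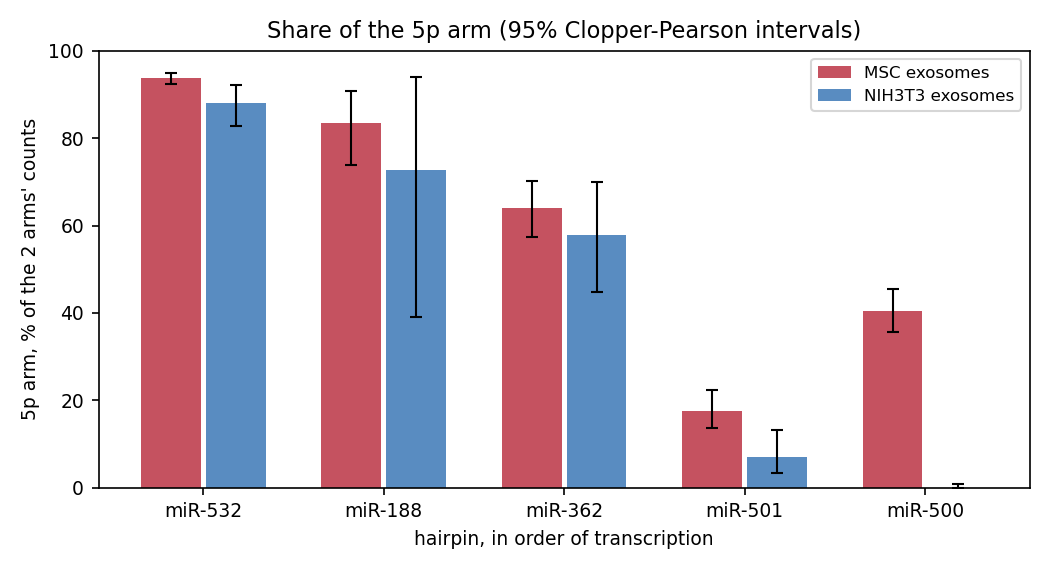
Share of the 5p arm among the counts of both arms (percent) for the 5 hairpins in order of transcription, in MSC exosomes (red, left) and NIH3T3 exosomes (blue, right), 1 library each. Error bars are 95% Clopper-Pearson intervals, except that the bar at 0 for miR-500 in NIH3T3 exosomes is drawn up to the 0.977% that 0 counts allow; the share in MSC exosomes is 40.5%.

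Set against other hairpins, the change of miR-500 was large, but the levels of both its arms were known when the cluster was picked. The rank of miR-500 among hairpins is therefore a description. The table listed both arms of 320 hairpins, of which 88 had 100 or more counts in each library, miR-532, miR-501 and miR-500 among them. The 5p share differed between the libraries by a median of 2.31 percentage points, and by more than 20 points in 4 of the 88. The largest shift was the 40.5 points of miR-500, ahead of miR-134 in the Dlk1-Dio3 region of chromosome 12, with 61.2% in MSC (52.3 to 69.7) and 99.5% in NIH3T3 exosomes. These shifts of 40.5 and 38.3 points are in opposite directions, and their order in size is within counting error. On the log2 scale miR-500, at 6.12 with 3 counts for the 0 and an interval from 5.78, had the largest difference in favour of 5p in MSC exosomes, before miR-7648 (4.70) and miR-298 (2.78). The largest in the other direction were miR-134 (-6.98), miR-382 (-6.29) and miR-30b (-3.23). The 5p arm gained in MSC exosomes at 40 of the 88 hairpins, and the leading arm was the same in both libraries at 86. Hairpins with an arm below the level at which the table lists entries are left out of this comparison.

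**Figure D4:**
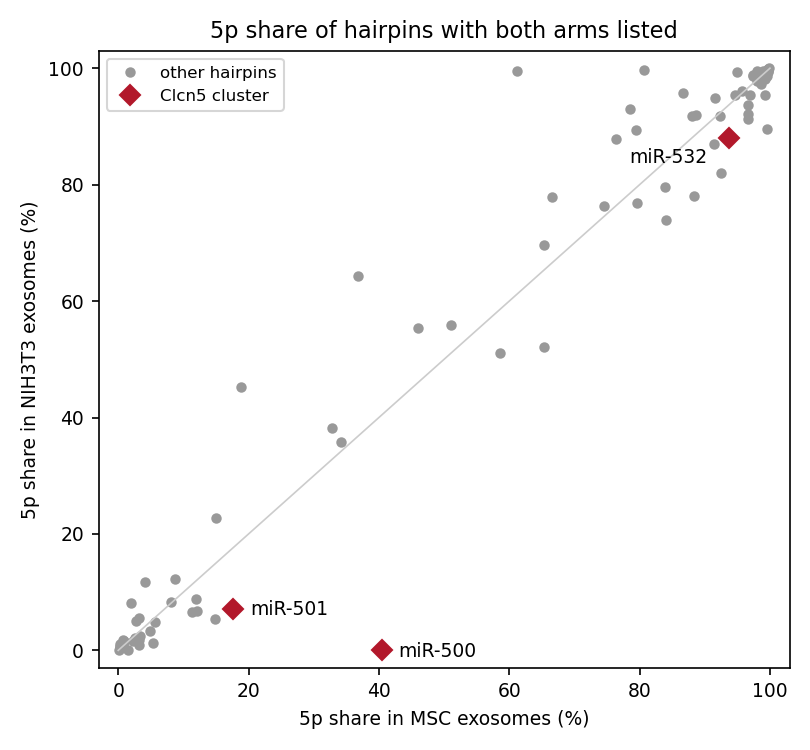
Share of the 5p arm in MSC exosomes (x axis, percent) and NIH3T3 exosomes (y axis, percent) for the 88 hairpins with 100 or more counts in each library; red diamonds are the hairpins of the Clcn5 cluster and the line marks equal shares. miR-500 lies at 40.5% in MSC exosomes and 0 in NIH3T3 exosomes, and miR-134 at 61.2% and 99.5% lies almost as far from the line on the other side.

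By seed, the arms of miR-500 joined different partners. The AUCCUUG seed, printed above for miR-500-5p and miR-362-5p, had 312 counts in MSC and 37 counts in NIH3T3 exosomes (log2 ratio 1.58, 1.09 to 2.12), and all 37 came from miR-362-5p. The AUGCACC seed of miR-500-3p and miR-501-3p had 508 counts in MSC and 424 counts in NIH3T3 exosomes (-1.23, -1.42 to -1.04). This last sum does not depend on how reads were divided between miR-500-3p and miR-501-3p.

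The miRNAs whose pair of levels was most like that of miR-500-5p lay on other chromosomes. Likeness was the distance between log2(CPM + 1) values over the 2 libraries, which is little to go by. The nearest was miR-691, on chromosome 16, with 188 counts in MSC and 0 counts in NIH3T3 exosomes, followed by miR-6389 (75 and 0 counts) and miR-6897-5p (72 and 0 counts). In all 18 miRNA entries had 0 counts in NIH3T3 exosomes, of which miR-500-5p and miR-691 reached 100 CPM in MSC exosomes. Nearest to miR-532-5p were miR-128-3p, a neural miRNA, with 1316 counts in MSC and 157 counts in NIH3T3 exosomes, miR-574-5p (1248 and 151 counts) and miR-6416-3p (1073 and 176 counts).

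Other X-linked miRNAs were mostly within 2-fold. Of 25 entries on chromosome X outside the cluster that passed 100 CPM, 8 had a higher and 2 a lower level in MSC exosomes, with 15 within 2-fold, with a median log2 ratio of 0.38. That is 32% higher and 8% lower, against 34.0% and 26.1% over all 318 miRNAs past that level, of which 127 were within 2-fold. The cluster members past that level had 2 higher, 1 lower and 2 within, as given above. With so few entries no difference between the cluster and the other X-linked miRNAs can be read.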

How the data were processed

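Small RNA from exosomes was sequenced in 1 library per group after exoRNeasy extraction and QIAseq miRNA library construction, per the labels' protocols, which also speak of a miRNA microarray. The raw counts per miRNA were deposited by the authors as whole numbers, with mm10 positions per the submitters' processing notes. The sources used here do not say whether reads or molecular identifiers were counted, nor with which tools. The authors' deposited log2 values equalled the log2 of the count times 0.655 (MSC) or 1.84 (NIH3T3), with 0 for a count of 0 and for products under 1. Every entry had 10 or more counts in at least 1 library.

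Log2 ratios used these factors with an added constant of 1 CPM (0.734 on the deposited scale). Intervals are exact conditional (Clopper-Pearson) and omit that constant. For arm differences they are those of the conditional odds ratio. Named were all members, the other arms of their hairpins, the 3 miRNAs nearest to miR-500-5p and to the most abundant member, and the 3 hairpins with the largest arm difference in each direction. Other names were chosen after their values were seen. Members and lists were chosen with earlier results of these data known. Python 3.11.15, numpy 2.4.6, pandas 2.3.3 and scipy 1.17.1 were used, and the ratio and interval code was tested on simulated data.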

Additional observations from a re-analysis of the deposited data

How the results depend on the processing

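The counts of 2 members higher and 1 lower held under each of the 4 other scalings. Added constants of 0.1 and 10 CPM left them the same. Over all miRNAs past the level, 30.5% to 37.7% were then higher and 23.9% to 31.1% lower. The counts also held with a 1.5-fold rule, against 42.8% higher and 34.0% lower over all miRNAs. They held too when the interval had to lie wholly beyond 2-fold. That rule was applied to the members only, so it has no background share. With a 3-fold rule 1 member was higher, miR-500-5p, and 1 lower, against 25.5% and 20.4% of all miRNAs. With a level of 10 CPM or none all 8 entered. miR-188-5p then made 3 higher, against 23.9% and 23.8% of all miRNAs, and 1 stayed lower, against 26.2% and 25.5%. The summed log2 ratio of 0.35 was 0.58 scaled by the miRNA total, 0.57 scaled by the total of all entries, 0.072 centred on the median and 0.18 when each library's 10 most abundant miRNAs were left out of the scaling. It was 1.35 without miR-500-3p and miR-501-3p, so without these 3p arms the total was past 2-fold. The miR-500 arm difference with 3 counts for the 0, 6.12 on the log2 scale, was 5.55 with miR-500-3p and miR-501-3p merged. Its shift in 5p share was also the largest with a minimum of 50 counts (104 hairpins) or 200 counts (64 hairpins), minimums chosen after seeing the data. Ratios of single members moved by more than their counting interval in 3 of 46 alternatives, and no called ratio changed sign. No paired analysis was possible because each group held 1 library. Depth limits miR-188 most, with 11 counts in NIH3T3 exosomes.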
